A study of Mus musculus with 6 samples.

Results

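The aryl hydrocarbon receptor (AHR) and the genes around it were examined in B16F10 mouse melanoma cells as 6 genes, found by their symbols among the 27179 genes of the deposited table. They were the receptor Ahr, its repressor Ahrr, the partner gene Arnt2, and the targets Tiparp, Cyp1b1 and Cyp1a1. Wild-type B16F10 cells, an established line, were given 0.01% ozonated olive oil (OZO) or 0.01% olive oil (OLO) for 6 h, with 3 libraries of total RNA in each group. The value analysed for each gene was the authors' mean level over all 6 libraries, in log2 CPM (reads scaled to a common library size), so that OZO and OLO are averaged together. No level of either treatment alone and no difference between OZO and OLO was analysed here, and a mean over all libraries carries no spread between cultures.

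AHR is a transcription factor of the bHLH-PAS family that rests in the cytoplasm with the chaperone HSP90 and the co-chaperone p23. When it binds a ligand, such as a dioxin, a polycyclic hydrocarbon or a tryptophan metabolite, it moves to the nucleus, pairs with ARNT and binds DNA at elements with the core letters GCGTG. Among its targets are the cytochrome P450 genes of the CYP1 family, which oxidise many ligands, and Ahrr and Tiparp, whose products restrain the receptor. In melanocytes and skin the pathway is known for its response to ultraviolet light and pollutants.

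The annotated start regions of the 4 target genes are shown because each holds these core letters, printed in capitals (GCGTG, or CACGC where the core lies on the other strand). Each sequence runs from 250 bases before the annotated start to 50 bases from it, 5′ to 3′ on the strand of its gene, and comes from RefSeq on GRCm38.p6, the build of mm10. The windows lie at chr3:65528197-65528496 on the plus strand for Tiparp, chr9:57697363-57697662 on the plus strand for Cyp1a1, chr17:79715012-79715311 on the minus strand for Cyp1b1 and chr13:74292282-74292581 on the minus strand for Ahrr.
Tiparp: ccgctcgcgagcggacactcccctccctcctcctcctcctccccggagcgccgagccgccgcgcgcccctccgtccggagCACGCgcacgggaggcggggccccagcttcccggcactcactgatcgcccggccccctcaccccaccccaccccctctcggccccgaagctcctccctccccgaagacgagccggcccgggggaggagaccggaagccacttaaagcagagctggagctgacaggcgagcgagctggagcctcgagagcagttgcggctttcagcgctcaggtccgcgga
Cyp1a1: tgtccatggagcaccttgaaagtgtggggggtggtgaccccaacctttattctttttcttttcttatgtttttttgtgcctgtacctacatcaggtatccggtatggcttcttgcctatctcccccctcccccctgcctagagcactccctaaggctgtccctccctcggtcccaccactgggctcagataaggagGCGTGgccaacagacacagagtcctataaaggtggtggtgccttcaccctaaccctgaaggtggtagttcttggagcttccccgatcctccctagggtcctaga
Cyp1b1: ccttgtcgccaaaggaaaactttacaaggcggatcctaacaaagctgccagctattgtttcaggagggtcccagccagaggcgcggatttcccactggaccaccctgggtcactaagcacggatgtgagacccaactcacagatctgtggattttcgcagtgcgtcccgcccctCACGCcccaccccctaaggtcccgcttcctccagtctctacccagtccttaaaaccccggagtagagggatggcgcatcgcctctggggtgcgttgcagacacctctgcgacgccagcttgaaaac
Ahrr: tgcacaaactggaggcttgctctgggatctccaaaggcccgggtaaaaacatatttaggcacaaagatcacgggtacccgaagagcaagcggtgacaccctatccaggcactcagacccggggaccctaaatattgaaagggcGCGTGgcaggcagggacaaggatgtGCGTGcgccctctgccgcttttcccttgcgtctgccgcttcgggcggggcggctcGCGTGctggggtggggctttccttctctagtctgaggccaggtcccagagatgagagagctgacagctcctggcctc

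GCGTG, searched on both strands, was present in 4 of the 5 members for which a promoter sequence was matched, and in 32.4% of all 32851 promoters of the same length. Tiparp, Cyp1b1 and Cyp1a1 had 1 core each, whereas Ahrr had 3, a number that 3.91% of all promoters reached. The first base of the 3 Ahrr cores lay 107, 82 and 27 bases before the start. The core lay 54 bases before the start in Cyp1a1, 76 in Cyp1b1 and 170 in Tiparp. Arnt2, whose window is the richest in G and C of the 5 (76.7%), had none. Outside the members, Arnt also held 1 core, 29 bases before its start, whereas the CYP1 gene Cyp1a2 held none. No sequence was used for Ahr. The longer form TNGCGTG, which contains the core, was found in 5.07% of all promoters and, among the members, in Ahrr alone. GCGTG is also one spelling of the core bound by hypoxia-inducible factors. The other spelling, ACGTG, was in 0 of the 5 members and in 19.6% of all promoters. Cyp1a1 carried the TATA box letters TATAAA 30 bases before its start, as 13.6% of promoters did on either strand anywhere in the window. Over the 18458 genes of the table with such a sequence, those holding GCGTG had a median level of 3.93 log2 CPM and those without it -2.88 log2 CPM. Among the 4 members with the core, Tiparp (7.66 log2 CPM) lay above the first median, whereas Ahrr (1.83), Cyp1b1 (-2.57) and Cyp1a1 (-3.72) lay below it. A gap was not particular to GCGTG. With and without ACGTG the medians were 3.62 and -0.945 log2 CPM, and with and without TATAAA -4.46 and 1.28 log2 CPM. Promoters were not matched for their content of G and C, and the source of these gaps was not tested. These letters describe the windows and do not show that AHR binds there.

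**Figure D1:**
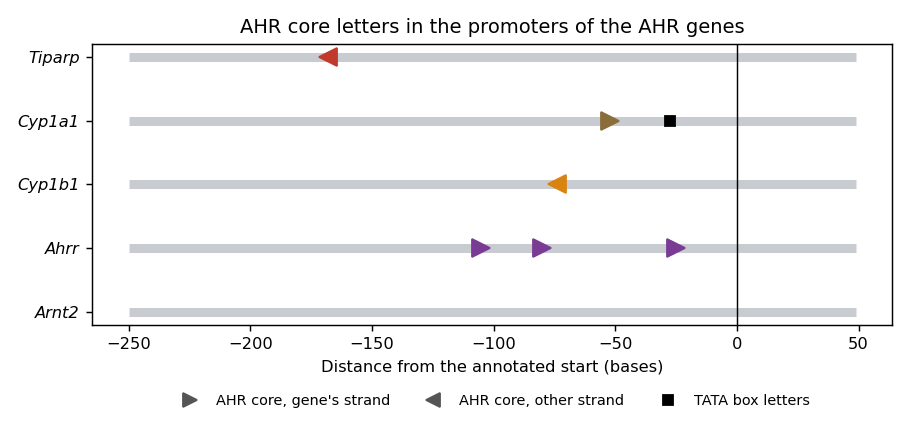
Positions of GCGTG (triangles, pointing along the strand) and TATAAA (black square) in the promoter windows of 5 members, by distance from the annotated start in bases. Ahrr holds 3 cores between 107 and 27 bases before its start, the other 3 targets hold 1 each, and Arnt2 holds none.

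Reads per library of the 6 genes ran from 3960 (Tiparp) down to 0.987 (Cyp1a1). Here and below, means and averages of reads and of CPM are geometric means over the 6 libraries. They lie below plain means where the libraries differ. Library sizes after scaling had a geometric mean of 19641946, which puts 19.6 reads behind each CPM. Levels in CPM and log2 CPM hold the 0.5 reads that voom adds to each count, whereas reads per library and CPM per kilobase are given without them, which matters only for genes with few reads. Of the 27179 genes, 6025 had no reads in any library and 11878 averaged at least 1 CPM. All 6 members had reads, and 4 of them averaged at least 1 CPM. On the log2 CPM scale the members spanned 11.4 units. All 7 melanocyte markers were well covered, from 109 CPM for Sox10 to 7052 CPM for Dct. Of 15 markers of leukocytes, epithelium, endothelium and fibroblasts, 11 averaged under 1 CPM and the highest, Pdgfra, reached 3.28 CPM. At 1 CPM or more were 3 of the 4 fibroblast markers and 1 of the 3 endothelial markers.

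**Figure D2:**
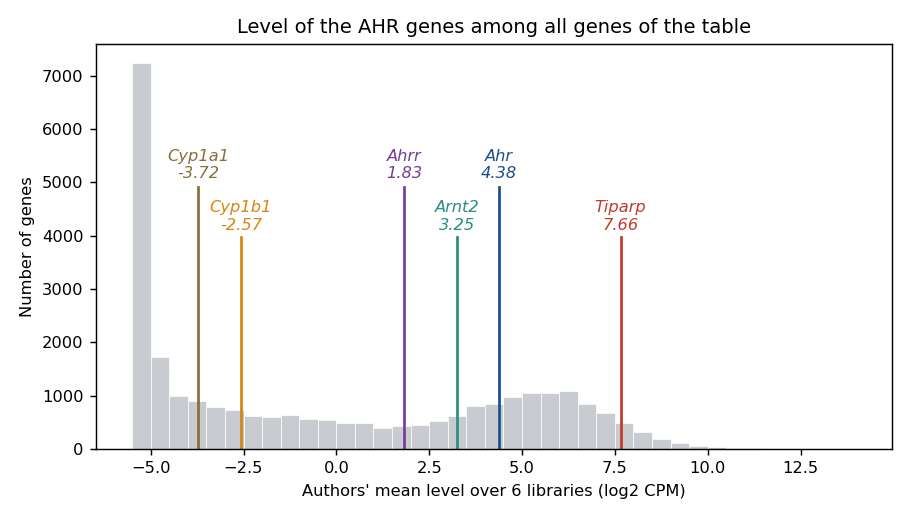
Histogram of the authors' mean level (log2 CPM, x axis) over all 27179 genes (number of genes in each bin, y axis), with the 6 members as coloured lines. Cyp1a1 (-3.72) and Cyp1b1 (-2.57) lie on the left, Tiparp (7.66) near the right end, and Ahrr (1.83), Arnt2 (3.25) and Ahr (4.38) between them.

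Ahr, which encodes the receptor, lies on chromosome 12 from 35497974 to 35535038 on the minus strand of GRCm38, and its longest annotated transcript has 11 exons and 5548 bases. Its mean level was 4.38 log2 CPM, or 20.9 CPM. That level rested on 409 reads per library, the geometric mean over the libraries, with a 95% counting interval (exact Poisson) from 393 to 426 if all 6 libraries had equal reads. Ahr stood above 73.9% of all genes of the table. Per kilobase of the longest transcript its level was 3.76 CPM. This was above the median of the genes with reads, 1.85 CPM per kilobase. The noncoding gene Gm48236 overlaps Ahr on the opposite strand and has no level in the table. Whether strand was used in counting is not stated, so reads of such a partner cannot be told apart from those of Ahr.

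Ahrr encodes the repressor, which competes with AHR for ARNT and is itself induced by AHR. It lies on chromosome 13 from 74211118 to 74292331 on the minus strand and overlaps no other annotated gene. It has 7 annotated transcripts, with 5 exons in the longest. Its mean level was 1.83 log2 CPM (3.57 CPM), from 69.6 reads per library with a counting interval from 63.0 to 76.6. Per kilobase it reached 0.694 CPM, the lowest of the 4 members with at least 1 CPM. Ahr was 5.41 times higher than Ahrr per kilobase of the longest transcript and 9.02 times higher per kilobase of merged exons, because the merged exons of Ahrr (9441 bases) are much longer than its longest transcript (5099 bases). The mean also limits the reads in the libraries: voom adds 0.5 reads to each count, so the product over the 6 libraries of 2 times the reads plus 1 is a whole odd number. For Ahrr that product was 7563935351115. It leaves 363716 possible sets of reads, of which each has at least 435 reads in all and at least 95 in 1 library.

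Arnt2 encodes a bHLH-PAS protein that can take the place of ARNT and is known mainly from nerve tissue. It lies on chromosome 7 from 84246278 to 84410176 on the minus strand, with 20 exons in a longest transcript of 6228 bases. Its mean level was 3.25 log2 CPM (9.50 CPM), with 186 reads per library and a counting interval from 175 to 197. Per kilobase it stood at 1.52 CPM. Arnt, the usual partner of AHR, stood at 29.7 CPM per kilobase and was thus 19.5 times higher than Arnt2, or 13.0 times with merged exons. Ahr was 2.47 times higher than Arnt2 per kilobase, so of these 3 genes Arnt ranked highest and Arnt2 lowest under either length. An snRNA gene, Gm25790, and an antisense gene, Gm30873, overlap Arnt2 and have no level in the table.

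Tiparp had the highest level of the 6 genes. It encodes an ADP-ribosyltransferase, another name of which is PARP7, which modifies AHR and restrains it. The gene lies on chromosome 3 from 65528410 to 65555518 on the plus strand, with 6 exons and 4191 bases in its longest transcript. Its mean level was 7.66 log2 CPM (202 CPM), from 3960 reads per library with a counting interval from 3910 to 4011, and it ranked 1022 among the 27179 genes. Per kilobase it stood at 48.1 CPM and above 94.6% of the 23882 genes whose length was known. Tiparp was 12.8 times higher than Ahr and 69.3 times higher than Ahrr per kilobase. With merged exons the first ratio was 13.7 and the second was 123. A processed pseudogene on the opposite strand, 4931440P22Rik, overlaps Tiparp and averaged 5.42 reads per library.

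Cyp1b1 and Cyp1a1, the CYP1 oxidases most often used as readouts of AHR, were close to the floor of the measurement. Cyp1b1 lies on chromosome 17 from 79701537 to 79715061 on the minus strand. Its mean level was -2.57 log2 CPM (0.169 CPM), or a geometric mean of 2.81 reads per library once the added 0.5 reads are taken off (3.31 with them). The product of 2 times the reads plus 1 was 84825, with 6 prime factors (3, 3, 5, 5, 13 and 29). It allows 92 sets of reads. In each of them the libraries held at least 26 reads in all and some library held at least 14, so the reads of Cyp1b1 were not equal in the 6 libraries. Which libraries these were, and in which treatment, is not known from a mean.

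Cyp1a1 lies on chromosome 9 from 57687928 to 57703824 on the plus strand, beside Cyp1a2. The promoter window printed above lies inside this span, at the start of a shorter annotated transcript. Its mean level was -3.72 log2 CPM (0.0757 CPM), or a geometric mean of 0.987 reads per library once the added 0.5 reads are taken off (1.49 with them). The product was 693, with the 4 prime factors 3, 3, 7 and 11. At most 4 of the 6 libraries therefore had a read of Cyp1a1, and at least 2 had none. The 11 possible sets hold at least 10 reads in all, and at least 5 of them in 1 library. Cyp1a2, the liver enzyme of the family, had a product of 93 and so reads in at most 2 libraries. Its 2 possible sets hold at least 16 reads in all, and at least 15 of them in 1 library. No CYP1 gene averaged 1 CPM, as was also the case for 15301 of the 27179 genes. Per kilobase, Cyp1b1 stood at 0.0279 CPM and Cyp1a1 at 0.0186 CPM. These are geometric means of unequal libraries, no interval is given for them, and whether these neighbours differ beyond their spread was not tested.

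In order of level per kilobase the first 4 members were Tiparp, Ahr, Arnt2 and Ahrr. Below them lay Cyp1b1 and Cyp1a1. Both were under the floor of 10 reads per library set for comparing levels per length, so no order between them is given. The counting intervals of the first 4 do not overlap (47.5 to 48.7 for Tiparp, 3.61 to 3.91 for Ahr, 1.43 to 1.61 for Arnt2 and 0.629 to 0.764 CPM per kilobase for Ahrr). These intervals cover counting error only and take the libraries as equal, which the product of Ahrr shows not to hold exactly. Whether the order holds in each library or within OZO or OLO alone was not analysed.

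**Figure D3:**
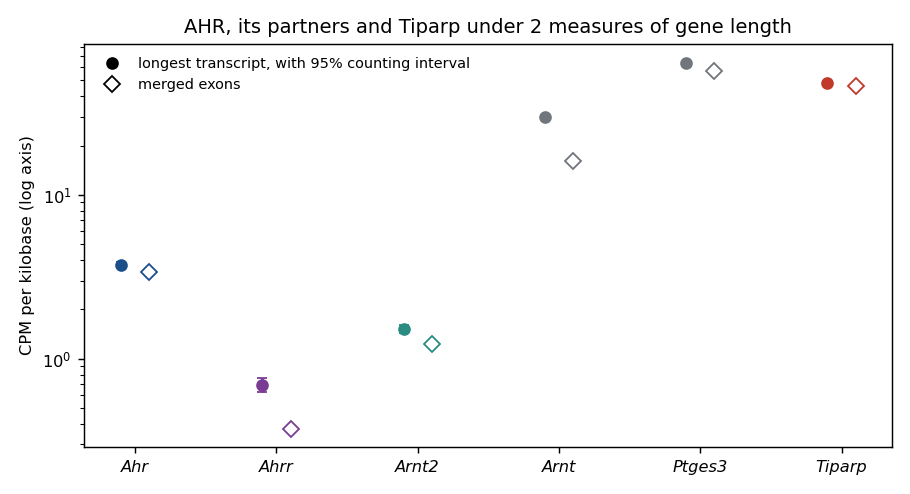
Level per length (CPM per kilobase, log axis) of Ahr, Ahrr, Arnt2 and Tiparp beside Arnt and Ptges3. Circles use the longest transcript and carry 95% counting intervals, mostly smaller than the symbol, and diamonds use merged exons. Tiparp lies above Ahr, Arnt2 and Ahrr under either length.

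The members were then set beside the rest of the receptor's complex. All 7 genes of the complex examined averaged at least 1 CPM, and Ahrr, Arnt2 and Ahr were the 3 lowest of them per kilobase. Ptges3, which encodes p23, stood at 63.4 CPM per kilobase. The HSP90 genes Hsp90aa1 (882 CPM per kilobase) and Hsp90ab1 (1535 CPM per kilobase) were far higher, although reads of Ptges3 and of both HSP90 genes could be shared with their pseudogenes.

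Of 12 genes listed as AHR targets, 12 had reads, but 5 averaged at least 1 CPM and 7 did not. Over all genes, 11878 of 27179 averaged at least 1 CPM. The 5 were Tiparp and Ahrr with Nqo1, a quinone reductase, Gsta1, a glutathione transferase, and Nfe2l2, which encodes NRF2. The study reports that OZO activates the NRF2 pathway, and OZO libraries are part of each mean. What part AHR or NRF2 has in the levels of these 5 genes was not tested. Per kilobase Nfe2l2 (60.4 CPM) stood above Tiparp (48.1 CPM) with the longest transcript, but below it with merged exons (39.4 against 46.3 CPM). Gsta1 stood at 21.6 CPM per kilobase and could share reads with close family members, and Nqo1 stood at 6.16 CPM per kilobase. Below 1 CPM, besides the 3 CYP1 genes, were Aldh3a1, Serpinb2, Ugt1a6a and Ugt1a6b. Their products were 45, 15, 15 and 3, and the last value means 1 read in 1 library. Ugt1a6a and Ugt1a6b share exons, so their reads are uncertain. The median of the 12 genes was -3.15 log2 CPM, against -1.49 log2 CPM over all genes.

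**Figure D4:**
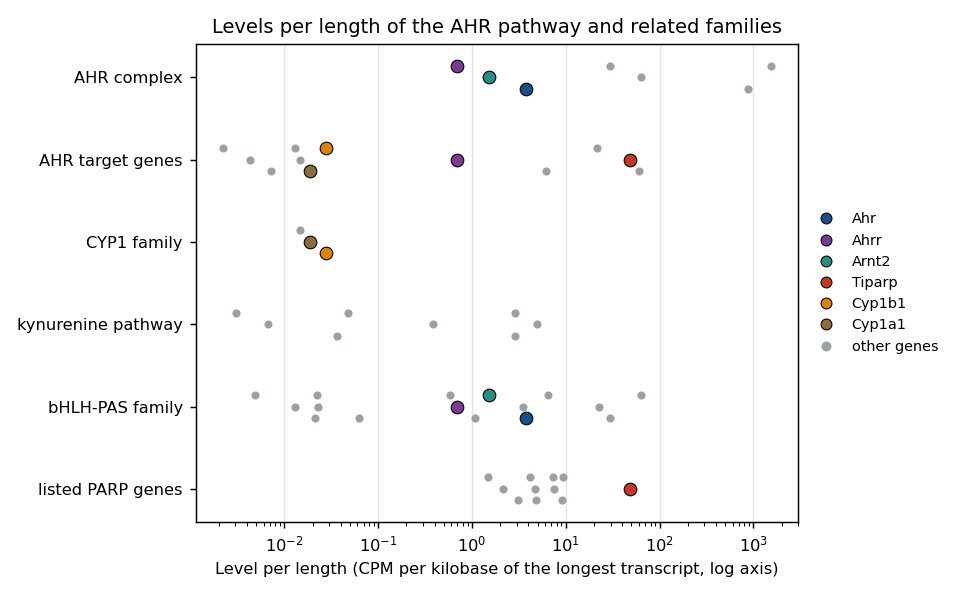
Level per length (CPM per kilobase of the longest transcript, log axis) of each gene, in 6 lists of the AHR pathway and related families. Members are large coloured points and other genes are small grey points. Tiparp is the highest of the 11 listed PARP genes, whereas Cyp1a1 and Cyp1b1 lie below Ahrr.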

How the data were processed

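RNA of 6 B16F10 libraries (3 OLO, 3 OZO) was analysed from 1 table of the whole series. Per the study's methods and the labels, the authors aligned reads to mm10 with HISAT2 (2.1.0), counted them with featureCounts (2.1.1) and compared the groups with limma-voom (3.58.1). The annotation used for counting, its strand setting and any filter are not given in the sources used here. The log2 values used are the authors' deposited mean log2 CPM over the 6 libraries. The table's 5 other value columns hold the authors' own comparison of OZO with OLO (fold changes, moderated statistics, p-values and log odds) and were not used, so no test was made here. The tests named in the plan for values of single libraries could not be run.

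The library size was computed from the value shared by genes without reads, to which voom had added 0.5 reads. Reads per library and CPM per kilobase rest on geometric means with that 0.5 subtracted, and CPM values keep it. Among 8941 genes with reads and a product up to 1e9, each product of 2 times the reads plus 1 lay within 1.8e-05 of an odd whole number. Up to 1e13 (10960 genes) the largest distance was 0.334. On simulated counts of 27179 genes put through voom, 100% of 17036 products were recovered. Lengths and positions come from GENCODE M21 (GRCm38), in which 23882 of 24126 Ensembl identifiers were found, and promoters from RefSeq on GRCm38.p6, matched for 5 of the 6 members. Intervals cover counting error only and take the 6 libraries as equal. Alternatives were other sets of genes for ranks, no subtraction of 0.5 reads, and merged exons as length.

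The genes named were the 6 members and lists of the AHR complex, AHR targets, kynurenine enzymes, and the bHLH-PAS, CYP1 and PARP families, with cell type markers. A gene of the planned lists is not reported here. Members and lists were chosen with earlier results of these data known. Genes sharing a pattern with a member were to be named only from values of single libraries, so none were. Calculations used pandas 2.3.3, scipy 1.17.1 and numpy 2.4.6 in Python 3.11.15, with sympy 1.14.0 for factors, and R 4.3.3 with limma 3.58.1 for the simulated data.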

Additional observations from a re-analysis of the deposited data

How the results depend on the processing

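No paired analysis was possible because each level is a mean over all 6 libraries, and no library could be left out. The alternatives for a test of OZO against OLO (DESeq2, limma-voom, no filter, a replicate block, another pseudocount) were not run for the same reason. Without the subtraction of 0.5 reads, reads per library rose from 0.987 to 1.49 for Cyp1a1 and from 2.81 to 3.31 for Cyp1b1, and moved by less than their counting interval for the other 4 genes. The share of genes below a member depended on the genes counted. Among genes with reads it was 66.5% for Ahr, 51.6% for Ahrr, 58.2% for Arnt2, 95.2% for Tiparp, 29.4% for Cyp1b1 and 21.1% for Cyp1a1, and among rows with a symbol 72.7% for Ahr, 60.7% for Ahrr, 65.9% for Arnt2, 43.3% for Cyp1b1 and 36.9% for Cyp1a1, while Tiparp stayed within its interval. With merged exons as length the level per kilobase was 3.38 CPM for Ahr, 0.375 CPM for Ahrr, 1.23 CPM for Arnt2 and 46.3 CPM for Tiparp, since merged exons are longer than the longest transcript. Depth and unequal libraries limit Cyp1a1 and Cyp1b1, whose difference was not tested.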

Other observations

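Enzymes that make AHR ligands from tryptophan were unevenly covered. Of 8 genes of the kynurenine pathway, 4 averaged at least 1 CPM. Among the enzymes of the first step, Ido2 had a geometric mean of 24.0 reads per library and Tdo2 of 2.48, while the mean of Ido1 corresponds to 1 read in 1 library. Il4i1, an amino acid oxidase whose products can feed AHR, had a geometric mean of 2.15 reads per library. Afmid, which acts on the second step, stood at 4.96 CPM per kilobase, and the aminotransferases Kyat1 and Kyat3, which make kynurenic acid, at 2.85 and 2.84 CPM per kilobase. With merged exons the levels were 3.26 for Afmid, 2.01 for Kyat1 and 1.26 CPM per kilobase for Kyat3. Afmid overlaps 2 protein-coding genes, Gm20708 on the same strand and Tk1 on the opposite strand, so its reads are uncertain.

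In the bHLH-PAS family, 16 genes were in the table and 10 averaged at least 1 CPM. Hif1a (63.6 CPM per kilobase), Arnt (29.7), Clock (22.7) and Bmal1 (6.51) stood above Ahr (3.76) with the longest transcript. Epas1, at 3.52 CPM per kilobase, lay near Ahr, and its counting interval (3.38 to 3.67) overlaps that of Ahr (3.61 to 3.91). With merged exons Ahr (3.38), Bmal1 (3.45) and Epas1 (3.47 CPM per kilobase) lay close together. The longest annotated transcript of Bmal1 has 1 exon. Npas3, known from the brain, averaged 67.9 reads per library, close to the 69.6 of Ahrr. All 11 listed genes of the PARP family, which has further members that were not examined, averaged at least 1 CPM. Tiparp stood at 48.1 CPM per kilobase, above Parp11 (9.24) and Parp12 (9.17), whose counting intervals overlap (8.96 to 9.53 and 8.87 to 9.48). With merged exons Parp11 stood at 4.93 CPM per kilobase, below Parp12 at 7.42.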
